A study of Mus musculus with 6 samples.

Results

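Expression of 10 genes of the tumor necrosis factor (TNF) superfamily, 7 receptors and 3 ligands, is described in fibroblasts of mouse mammary tumors, known as cancer-associated fibroblasts or CAFs. They were taken by symbol from a table of counts for 27179 genes, and all 10 were among the 14855 genes left after genes with low counts were removed. The tumors came from raGFP-Wnt1 mice, which carry an MMTV-Wnt1 transgene that drives Wnt1 in the mammary epithelium and a Pdgfra reporter that makes green fluorescent protein (GFP) in fibroblasts. GFP-positive cells of 3 tumors were separated by flow cytometry by the surface protein CD34. This gave 1 CD34 negative and 1 CD34 positive library from each tumor, 3 per group, all carrying the transgene and the reporter, and the labels give no treatment. Libraries are named by CD34 status and tumor number. The age of the mice was not given in the labels used here.

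TNF ligands are made as membrane proteins, act as trimers and cluster their receptors. Fas, the TRAIL receptor and DR6 have a death domain in the cytoplasm. Of these, Fas and the TRAIL receptor can recruit FADD and, through caspase-8, start apoptosis. Receptors without a death domain recruit TRAF adaptors and mostly activate NF-kB and MAP kinases, and soluble decoy receptors take up ligand without signalling. In the mammary gland the family is best known for RANKL, the product of Tnfsf11, which acts on the epithelium downstream of progesterone. Fas, Tnfrsf10b and Eda2r are also known target genes of the transcription factor p53.

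Library totals lay between 16238059 and 86609267 counts. Negative library 3 stood apart, with counts for 14314 genes against 16253 to 19220 in the others, and correlated with them across genes at 0.837 to 0.883 (Pearson, log2 scale), where each other library had a partner at 0.922 or above. Cd34, the sorted marker, was at 79.1, 41.9 and 102 CPM in negative libraries 1, 2 and 3 and at 677, 562 and 1604 in positive libraries 1, 2 and 3. CPM are counts relative to the library total, here also scaled by TMM, a correction for the composition of each library. The libraries are bulk samples, so fewer expressing cells and less RNA per cell cannot be told apart.

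The comparison asked how far the receptors and ligands differed between CD34 negative and CD34 positive CAFs. Tnfrsf21, encoding death receptor 6, and Eda2r, encoding the receptor of ectodysplasin A2, were the members most elevated in CD34 negative CAFs, 3.66-fold and 2.88-fold in a fit without a tumor term. Neither passed the threshold in that fit, an adjusted p under 0.05 in limma-voom with Benjamini-Hochberg adjustment over all genes tested, and both passed when the tumor was a block. Of the 10 genes, 0 passed without the tumor term, where 0.121% of all genes tested did, and 4 had an unadjusted p under 0.05 (14.3% of all genes). The edgeR quasi-likelihood test and DESeq2 without the tumor term also called 0, where they called 9 and 698 of the 14855 genes tested. With the tumor as a block, 2 of 10 passed in limma-voom, against 8.57% of all genes in either direction and 4.32% called higher in CD34 negative CAFs. With the block, edgeR called 1, Tnfrsf21, and did not call Eda2r (adjusted p 0.0787). DESeq2 with the block called 3. These 2 fits called 575 and 1733 of the 14855 genes tested.

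The direction within tumors differed by gene. Of the 10 genes, 5 were higher in the CD34 negative library of all 3 tumors (Fas, Tnfrsf10b, Tnfrsf21, Eda2r and Tnfrsf19) and 2 were lower (Tnfrsf11b and Tnfsf10), where 46.3% of all genes tested kept 1 direction. The CD34 negative and CD34 positive libraries did not overlap for 3 genes, Fas, Tnfrsf10b and Eda2r, where they did not overlap for 20.5% of all genes. The place of Fas in both counts rests on tumor 1, at 21.92 CPM in the CD34 negative and 21.84 CPM in the CD34 positive library. The median log2 fold change of the 10 was 0.26 without and 0.23 with the block, and that of all genes was -0.03 and -0.01. In tumor 3 the log2 ratios of all genes had quartiles of -0.74 and 0.53, wider than those of tumor 1 (-0.37 and 0.42) and tumor 2 (-0.33 and 0.35).

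**Figure D1:**
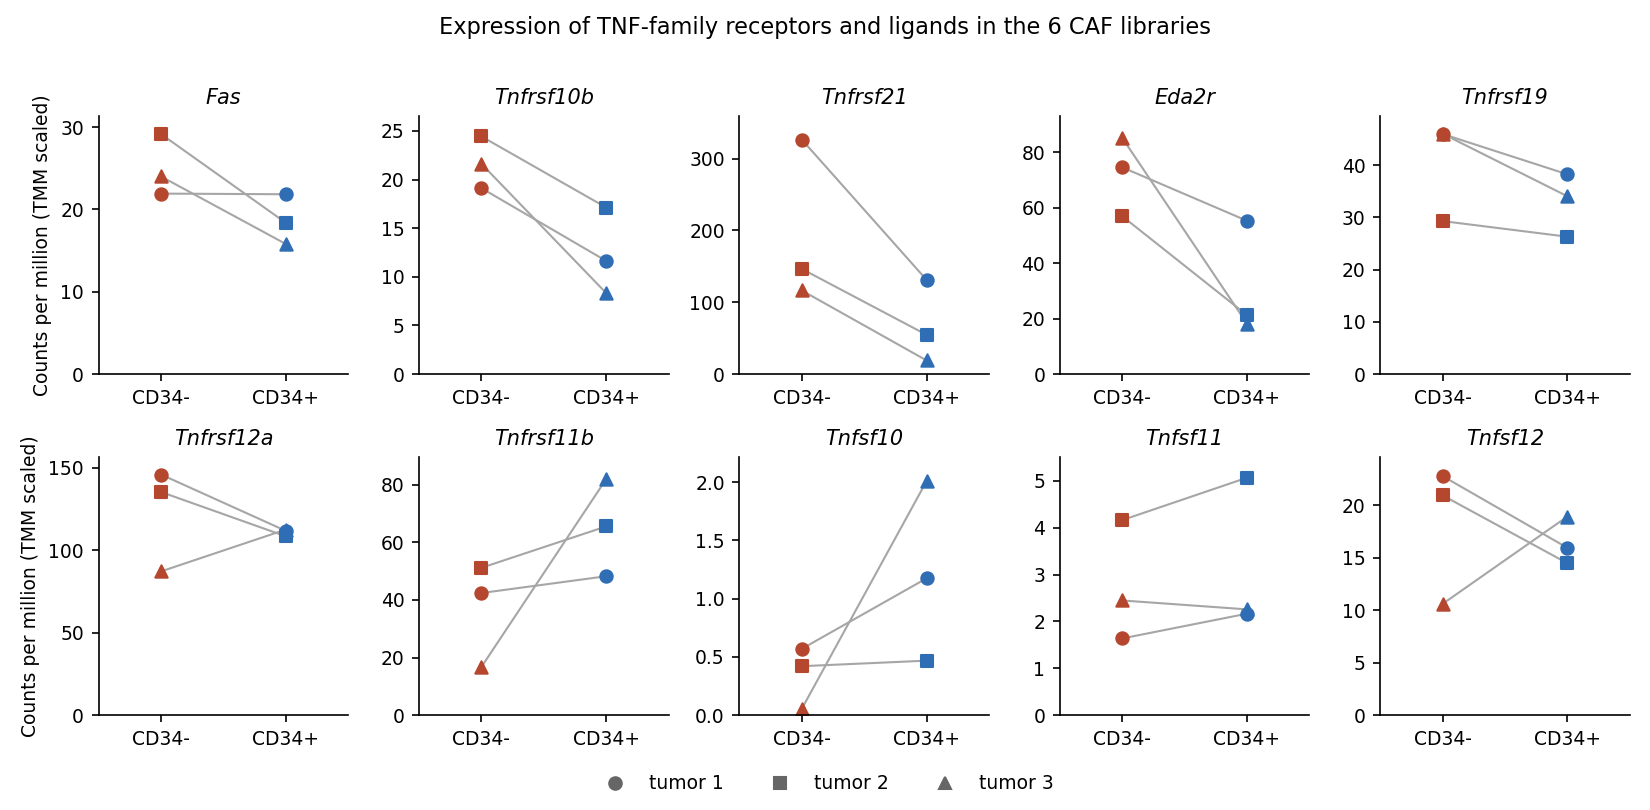
Expression of the 10 genes in each library, in TMM-scaled CPM from 0, with CD34 negative libraries on the left, CD34 positive libraries on the right and a line joining the libraries of 1 tumor. Tnfrsf21 and Eda2r descended from left to right in each tumor, and Tnfrsf11b ascended, most steeply in tumor 3.

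Tnfrsf21 (gene 94185, chromosome 17, 43016555 to 43089188 of GRCm38.p6) encodes a receptor with a death domain. It was at 326, 146 and 116 CPM in negative libraries 1, 2 and 3 and at 131, 54.6 and 18.9 CPM in positive libraries 1, 2 and 3. The groups overlapped, since positive library 1 lay above negative library 3, but the CD34 negative library was the higher in each tumor, by 1.32, 1.42 and 2.62 on the log2 scale. Tumor 1 had the highest and tumor 3 the lowest level in both fractions. The log2 fold change was 1.87 ± 0.62 (SE, n = 3 per group) without the block, with a limma-voom adjusted p of 0.233, and 1.67 ± 0.22 with the block, where the adjusted p was 0.00279. With the block it also passed in edgeR, with an adjusted p of 0.026, and in DESeq2, with 2.92e-09. Without tumor 1, 2 or 3, the blocked log2 fold change was 1.80, 1.86 and 1.36, past the threshold each time, and without negative library 3 and without the block it was 2.16 (adjusted p 0.305 in limma-voom).

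Eda2r (gene 245527, chromosome X, 97333837 to 97377234) encodes a receptor that signals through TRAF proteins. It was at 74.6, 56.9 and 85.2 CPM in negative libraries 1, 2 and 3 and at 55.3, 21.3 and 18.2 CPM in positive libraries 1, 2 and 3. The groups did not overlap, although negative library 2 lay only slightly above positive library 1. The ratio within a tumor was smallest in tumor 1, at 0.43, then 1.42 in tumor 2 and 2.23 in tumor 3. The log2 fold change was 1.52 ± 0.34 without the block (adjusted p 0.107 in limma-voom) and 1.36 ± 0.27 with it (adjusted p 0.0152). The call with the block was kept by DESeq2, with an adjusted p of 0.000629, and lost in edgeR, with 0.0787. With the block, Eda2r passed without each tumor in turn, at 1.73, 1.32 and 0.98 without tumors 1, 2 and 3. Without negative library 3 and without the block it was at 1.37.

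Because Eda2r and Tnfrsf21 passed with the block and Fas is the best-known death receptor, the sequence just upstream of the gene start of these 3 genes is shown, from RefSeq on GRCm38.p6, 5′ to 3′ on the strand of the gene. A promoter entry was found for 7 of the 10 genes. Capitals mark matches, on either strand, to 4 short motifs. These were the SP1 box with the letters GGGCGG, the box of the NF-Y factor with the letters CCAAT, the TATA box with the letters TATAAA and the AP-1 site with the letters TGANTCA. A p53 half-site and an NF-kB site were searched for by their 10-letter consensus.
Tnfrsf21, chr17:43016305-43016554, plus strand: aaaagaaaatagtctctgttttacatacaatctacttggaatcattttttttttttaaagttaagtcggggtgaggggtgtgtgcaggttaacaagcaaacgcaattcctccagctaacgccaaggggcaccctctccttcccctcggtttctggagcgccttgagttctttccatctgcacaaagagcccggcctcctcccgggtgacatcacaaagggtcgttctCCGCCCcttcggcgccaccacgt
Eda2r, chrX:97377235-97377459, minus strand: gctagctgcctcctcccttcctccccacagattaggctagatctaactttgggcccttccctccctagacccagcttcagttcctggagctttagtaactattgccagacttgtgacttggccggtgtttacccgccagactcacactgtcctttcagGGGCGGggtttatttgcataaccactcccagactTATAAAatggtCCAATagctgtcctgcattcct
Fas, chr19:34290409-34290646, plus strand: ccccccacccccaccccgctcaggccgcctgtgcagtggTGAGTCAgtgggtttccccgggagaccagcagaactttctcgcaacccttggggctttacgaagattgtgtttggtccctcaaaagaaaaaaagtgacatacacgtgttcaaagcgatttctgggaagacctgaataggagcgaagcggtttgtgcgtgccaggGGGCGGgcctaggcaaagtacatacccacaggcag
The Tnfrsf21 stretch held 12 CpG, the Fas stretch 11 and the Eda2r stretch 3. Each held 1 SP1 box, which 35.4% of 27025 genes had in the 250 bases before their start. Eda2r alone of the 3 held a TATA box and an NF-Y box, which 14.3% and 37.5% of genes had, and Fas alone held an AP-1 site, which 7.82% had. The p53 half-site and the NF-kB consensus, found for 8.2% and 8.23% of genes, were in none of the windows of the 7 genes. These are matches of letters in a short window and not evidence of binding or of its absence.

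Fas and Tnfrsf10b encode the death receptors for Fas ligand and for TRAIL. Fas (gene 14102, chromosome 19, 34290647 to 34327775) was at 21.9, 29.2 and 24.0 CPM in negative libraries 1, 2 and 3 and at 21.8, 18.4 and 15.8 CPM in positive libraries 1, 2 and 3. The groups were separated only by a small margin, because both libraries of tumor 1 were at nearly the same level, while the CD34 negative library was higher in tumors 2 and 3, by 0.67 and 0.60 on the log2 scale. Its log2 fold change was 0.45 ± 0.21 without and 0.50 ± 0.20 with the block. The limma-voom adjusted p was 0.389 and 0.173, so Fas did not pass. The 95% interval with the block ran from 0.05 to 0.95.

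Tnfrsf10b (gene 21933, chromosome 14, 69767472 to 69784411) was at 19.1, 24.4 and 21.6 CPM in negative libraries 1, 2 and 3 and at 11.6, 17.1 and 8.32 CPM in positive libraries 1, 2 and 3. All 3 CD34 negative libraries lay above the CD34 positive ones, with within-tumor log2 ratios of 0.71, 0.51 and 1.38. The log2 fold change was 0.69 ± 0.29 without and 0.75 ± 0.23 with the block. The limma-voom adjusted p was 0.335 and 0.0824, and it passed only in DESeq2 with the block, at 0.035. In all 27 fits the estimate was above 0, between 0.46 and 1.18, and it was 0.72 without negative library 3 and without the block.

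**Figure D2:**
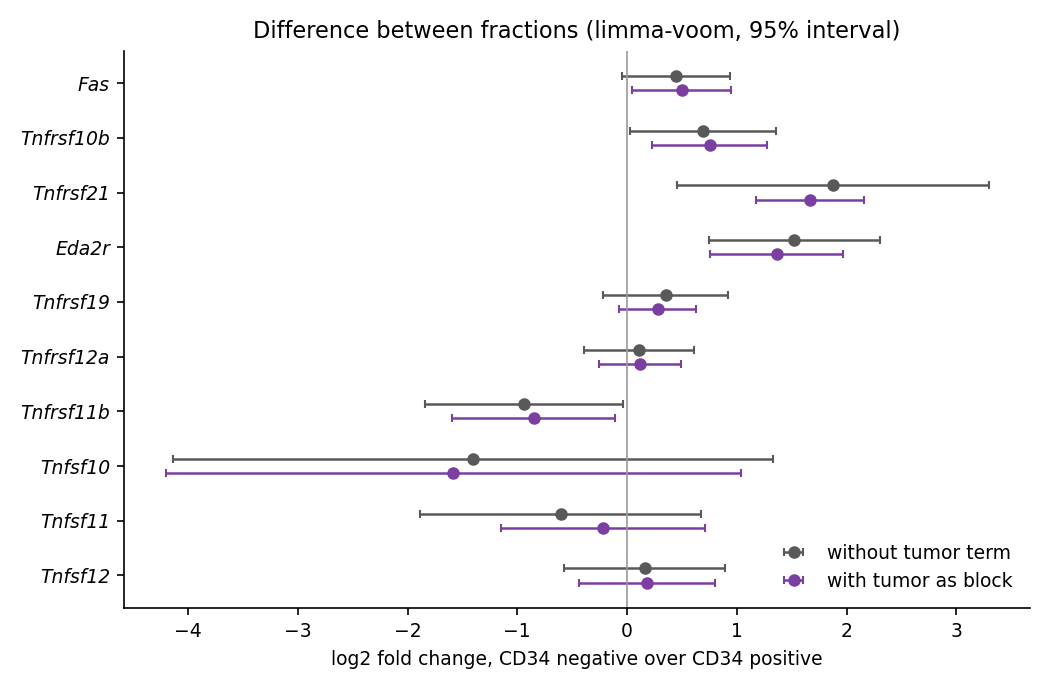
Log2 fold change of each gene, CD34 negative over CD34 positive, with 95% intervals from limma-voom without (grey) and with (purple) the tumor as a block. The interval of Tnfrsf21 narrowed from 0.45 to 3.29 without the block to 1.17 to 2.16 with it, and that of Tnfsf10 spanned 0 in both fits.

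Tnfrsf19 and Tnfrsf12a encode receptors without a death domain. Tnfrsf19 (TROY, gene 29820, chromosome 14, 60963834 to 61046855), a known target of Wnt signalling, was at 45.9, 29.3 and 46.0 CPM in negative libraries 1, 2 and 3 and at 38.2, 26.3 and 34.0 CPM in positive libraries 1, 2 and 3. The groups overlapped because both libraries of tumor 2 were low, and the CD34 negative library was slightly higher in each tumor. Its log2 fold change was 0.28 ± 0.16 with the block, with a limma-voom adjusted p of 0.341 and a 95% interval from -0.08 to 0.63.

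Tnfrsf12a (Fn14, gene 27279, chromosome 17, 23675445 to 23677449) encodes the receptor for TWEAK and is known to be induced by growth factors. It was at 146, 135 and 87.2 CPM in negative libraries 1, 2 and 3 and at 112, 108 and 113 CPM in positive libraries 1, 2 and 3. The CD34 positive libraries were nearly level, and the CD34 negative ones lay above them in tumors 1 and 2 and below in tumor 3. The log2 fold change of 0.11 ± 0.22 (adjusted p 0.858 in limma-voom) had a 95% interval from -0.39 to 0.61, and its sign turned in 4 of the 27 fits. Without negative library 3 it was at 0.34. Hcfc1r1 overlaps the 3' end of the annotated span of Tnfrsf12a and had 13505 counts against 31769, and whether counting used strand was not stated.

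Tnfrsf11b encodes osteoprotegerin, a secreted decoy that takes up RANKL and also binds TRAIL. Tnfrsf11b (gene 18383, chromosome 15, 54250619 to 54278484) was at 42.4, 51.2 and 16.8 CPM in negative libraries 1, 2 and 3 and at 48.2, 65.5 and 82.0 CPM in positive libraries 1, 2 and 3. It was lower in the CD34 negative library of each tumor, by little in tumors 1 and 2 and by far more in tumor 3, with log2 ratios of -0.19, -0.36 and -2.29. Negative library 3 was the lowest of all 6 libraries, and negative library 2 lay above positive library 1. The log2 fold change was -0.94 ± 0.40 without and -0.85 ± 0.33 with the block. The limma-voom adjusted p was 0.336 and 0.157. With the block it passed without tumor 1 (-1.06, adjusted p 0.0329) and without tumor 2 (-1.20, adjusted p 0.000613). Without tumor 3 it was at -0.30, with an adjusted p of 0.21, and without negative library 3 alone and no block at -0.47.

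The ligand that osteoprotegerin takes up, RANKL, was at a low level in both fractions. Tnfsf11 (gene 21943, chromosome 14, 78277446 to 78308043) had 92, 188 and 89 counts in negative libraries 1, 2 and 3, or 1.64, 4.16 and 2.45 CPM. It had 35, 433 and 64 counts in positive libraries 1, 2 and 3, or 2.17, 5.07 and 2.26 CPM. Both libraries of tumor 2 were the highest, and the groups overlapped. Its log2 fold change was -0.60 ± 0.56 without and -0.22 ± 0.41 with the block. The limma-voom adjusted p was 0.662 and 0.814, and 3 of the 27 fits gave a value above 0. Its signalling receptor gene Tnfrsf11a (RANK) had 76 counts in all libraries together, so a difference was not detectable at this depth.

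Tnfsf10, encoding TRAIL, was the lowest member. Tnfsf10 (gene 22035, chromosome 3, 27317077 to 27339665) had 32, 19 and 2 counts in negative libraries 1, 2 and 3 and 19, 40 and 57 counts in positive libraries 1, 2 and 3. In CPM the CD34 positive library was the higher in each tumor, at 1.18 against 0.570 in tumor 1, 0.468 against 0.420 in tumor 2 and 2.01 against 0.055 in tumor 3. The value of negative library 3 rests on 2 counts, and the fitted log2 fold change of -1.40 ± 1.19 (adjusted p 0.631 in limma-voom) depends on the offset added to low counts. The 95% interval ran from -4.13 to 1.33, and without negative library 3 the fitted value was -0.64.

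Tnfsf12 encodes TWEAK, the ligand of Fn14. Tnfsf12 (gene 21944, chromosome 11, 69686240 to 69696098) was at 22.8, 21.0 and 10.6 CPM in negative libraries 1, 2 and 3 and at 16.0, 14.5 and 18.9 CPM in positive libraries 1, 2 and 3. As for its receptor, the CD34 negative library was the higher in tumors 1 and 2 and the lower in tumor 3. The log2 fold change was 0.16 ± 0.32 (adjusted p 0.855 in limma-voom), with a 95% interval from -0.57 to 0.89, and 5 of the 27 fits turned its sign. Without negative library 3 it was at 0.45. The annotated span overlaps a read-through gene with the neighboring Tnfsf13 that had 183 counts, against 4647 for Tnfsf12, and an antisense RNA with 26.

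The levels of the genes were compared per kilobase of gene length, as CPM per kb. Tnfrsf12a was the most abundant in both fractions, at 127 ± 32.5 CPM per kb in CD34 negative and 115 ± 2.26 in CD34 positive CAFs (SD, n = 3), above 96.7% and 96.1% of the genes tested. Tnfrsf21 followed in CD34 negative CAFs, at 54.2 ± 31.3, and Tnfrsf11b in CD34 positive CAFs, at 23.2 ± 5.99, where Tnfrsf21 was at 18.8 ± 15.8. The order of these 2 genes thus differed between the fraction means, and in CD34 positive CAFs the means differed by less than the SD of Tnfrsf21. In CD34 negative CAFs, Fas (13.9 ± 2.06), Tnfrsf11b (13.1 ± 6.35), Eda2r (12.4 ± 2.45) and Tnfsf12 (10.7 ± 3.88) lay within their spread of each other. In CD34 positive CAFs, Fas was at 10.4 ± 1.68, Tnfsf12 at 9.72 ± 1.34 and Eda2r at 5.43 ± 3.54 CPM per kb.

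Lower in the order, Tnfrsf19 was at 8.46 ± 2.02 and 6.88 ± 1.27 CPM per kb in CD34 negative and CD34 positive CAFs, and Tnfrsf10b at 6.83 ± 0.838 and 3.89 ± 1.40. The ligands Tnfsf11, at 1.23 ± 0.577 and 1.42 ± 0.738, and Tnfsf10, at 0.0704 ± 0.0535 and 0.246 ± 0.156, were the only members below the median of all genes tested in CD34 negative CAFs, which was 5.36 CPM per kb. In CD34 positive CAFs Tnfrsf10b was also below the median, 5.32. Each receptor gene was therefore above the Tnfsf10 and Tnfsf11 ligand genes in both fraction means.

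**Figure D3:**
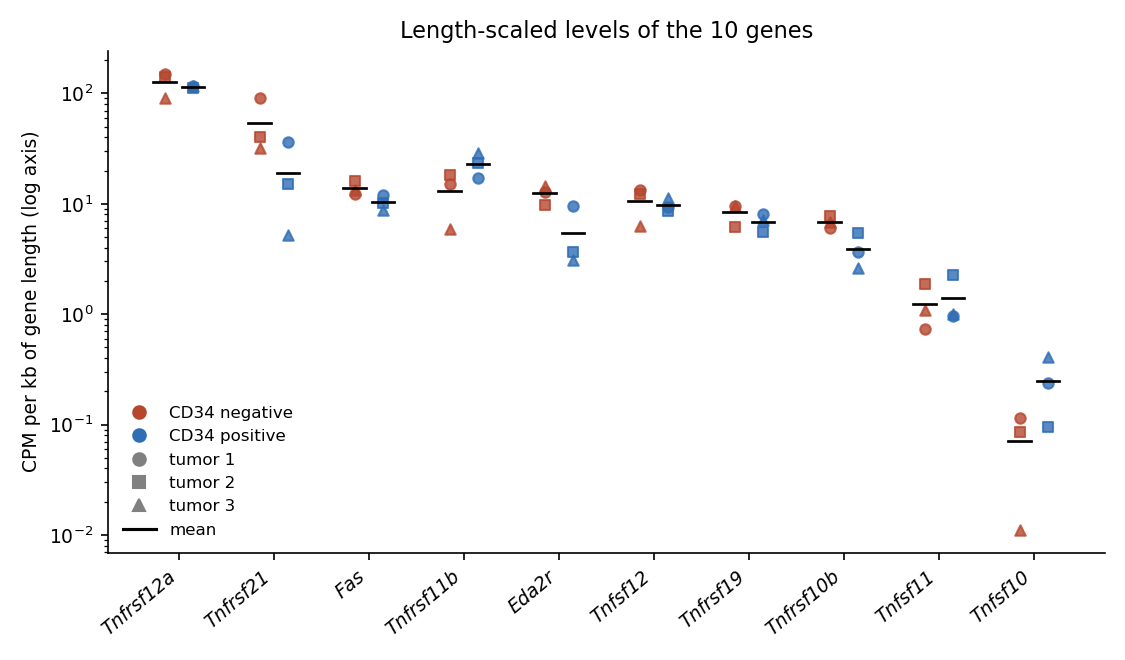
Levels of the 10 genes in CPM per kb of gene length on a log axis, with CD34 negative libraries in red, CD34 positive libraries in blue, 1 symbol per tumor and a bar at the mean. Tnfrsf12a lay at the top in both fractions and Tnfsf10 at the bottom, with negative library 3 resting on 2 counts.

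The balance of a ligand gene and its receptor gene was described within each library, as the log2 ratio of their CPM per kb, with no test. TWEAK and Fn14 kept a narrow ratio: Tnfsf12 over Tnfrsf12a was -3.49, -3.50 and -3.85 in negative libraries 1, 2 and 3 and -3.62, -3.72 and -3.38 in positive libraries 1, 2 and 3. Tnfsf11 over its decoy Tnfrsf11b was -4.35, -3.28 and -2.43 in negative libraries 1, 2 and 3 and -4.12, -3.36 and -4.84 in positive libraries 1, 2 and 3. In tumors 1 and 2 the fractions differed in this ratio by -0.23 and 0.08, and in tumor 3 by 2.40, where the decoy was lowest in the CD34 negative library. Tnfsf10 over Tnfrsf10b was -5.68 and -6.46 in negative libraries 1 and 2 and -3.91, -5.81 and -2.68 in positive libraries 1, 2 and 3, and is not given for negative library 3. The ligand gene was below the receptor or decoy gene in every ratio given.

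Other genes of the superfamily were read from the same fit. Of 15 other ligand genes 9 were tested, and without the block 0 passed in limma-voom, with 2 at an unadjusted p under 0.05 (14.3% of all genes). With the block, 1 rose and 1 fell, where 8.57% of all genes passed. Tnfsf9, encoding 4-1BB ligand, was at 106, 38.1 and 60.9 CPM in negative libraries 1, 2 and 3 and at 61.5, 23.0 and 18.1 CPM in positive libraries 1, 2 and 3, and rose by 1.01 ± 0.21 with the block (adjusted p 0.0174). Tnfsf8, encoding CD30 ligand, fell by 1.62 ± 0.37 (adjusted p 0.0259), from a mean of 12.4 CPM in CD34 positive to 3.78 CPM in CD34 negative CAFs. Both passed with the block without each tumor in turn, but neither passed in edgeR with the block (adjusted p 0.0558 and 0.0932).

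Fasl and Tnf, which encode ligands of death receptors, were scarce in these sorted CAFs, and ligands made by other cells of the tumors were not measured. Fasl had 4 counts over all 6 libraries, and Tnf had 507, at 0.495 to 3.31 CPM, with a log2 fold change of 0.22 ± 0.59 with the block (adjusted p 0.877 in limma-voom). Eda, whose A2 form binds the Eda2r product, was at 6.84 to 12.8 CPM in CD34 negative and 9.78 to 17.5 CPM in CD34 positive CAFs. It was lower in the CD34 negative library of each tumor, at -0.49 ± 0.23 with the block (adjusted p 0.236). Gene counts do not separate the A1 and A2 forms.

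Of 21 other receptor genes 14 were tested, and 0 passed without the block in limma-voom, with 2 at an unadjusted p under 0.05 (14.3% of all genes). With the block 1 rose (4.32% of all genes), and both shares were near those of all genes. Blocked edgeR called 1 and blocked DESeq2 called 2 of these genes, where they called 575 and 1733 of the 14855 genes tested. Tnfrsf26, a mouse receptor gene in a cluster with Tnfrsf22 and Tnfrsf23, was at 19.2, 21.2 and 42.8 CPM in negative libraries 1, 2 and 3 and at 6.43, 8.53 and 6.56 CPM in positive libraries 1, 2 and 3. The groups did not overlap, and the log2 fold change was 1.78 ± 0.31 with the block (adjusted p 0.00853) and 1.38 without tumor 3. These paralogs resemble each other, and how reads with several matches were counted was not stated. The TNF receptor genes Tnfrsf1a, at 169 to 261 CPM, and Tnfrsf1b, at 22.2 to 47.5 CPM, were at 0.18 ± 0.16 and 0.01 ± 0.19 on the log2 scale with the block (adjusted p 0.577 and 0.974 in limma-voom).

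Downstream genes of the death receptors were described in the same way. Of 18 genes, 0 passed without the block in limma-voom, with 3 at an unadjusted p under 0.05 (14.3% of all genes). With the block 1 rose (4.32% of all genes), so both shares were near those of all genes. An unadjusted p under 0.05 with the block was reached by 7 of 18, where 3460 of 14855 genes reached it. The gene that rose was Cflar, encoding c-FLIP, the inhibitor of caspase-8 at death receptors. Cflar was at 118, 158 and 194 CPM in negative libraries 1, 2 and 3 and at 86.9, 95.5 and 79.6 CPM in positive libraries 1, 2 and 3, with no overlap, and its log2 fold change was 0.84 ± 0.17 with the block (adjusted p 0.0161). The call was lost in blocked edgeR, at an adjusted p of 0.0666. Casp8, encoding caspase-8 itself, was at 0.34 ± 0.19 (adjusted p 0.322 in limma-voom) and the adaptor gene Fadd at -0.27 ± 0.35 (adjusted p 0.719). The list median was 0.20 with the block, beside -0.01 for all genes.

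Of 23 genes for TRAF adaptors, inhibitors of apoptosis and NF-kB components, 0 passed without the block in limma-voom. Without it 4 had an unadjusted p under 0.05 (14.3% of all genes). With the block 1 rose (4.32% of all genes), and both shares were near those of all genes. An unadjusted p under 0.05 with the block was more frequent, at 11 of 23, where 3460 of 14855 genes had one. Nfkbie, encoding the inhibitor IκBε, was at 32.9, 43.4 and 34.7 CPM in negative libraries 1, 2 and 3 and at 15.7, 24.0 and 20.0 CPM in positive libraries 1, 2 and 3. It did not overlap between the groups and rose by 0.88 ± 0.17 with the block (adjusted p 0.0146), but did not pass without tumor 2, at 0.89 with an adjusted p of 0.137. The list median was 0.23. Without tumor 3, 5 genes of this list passed with the block, where 2019 of 15514 genes tested did.

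Since Fas, Tnfrsf10b and Eda2r are known p53 targets, 22 other p53 target genes were set beside them. Without the block 1 passed, Phlda3, where 0.121% of all genes did. An unadjusted limma-voom p under 0.05 was reached by 12, where 14.3% of all genes reached it. With the block 12 rose and 0 fell, against 4.32% of all genes called higher, and the list median was 0.98. With the block, edgeR called 8 genes of the list, where it called 575 of all 14855 genes tested. Mdm2 (adjusted p 0.0535) and Bbc3 (0.0786) did not pass there. The 8 with the largest changes were Pmaip1 (1.79), Cdkn1a (1.53), Sesn2 (1.53), Bbc3 (1.49), Phlda3 (1.44), Mdm2 (1.38), Trp53inp1 (1.37) and Ccng1 (1.28), all log2 fold changes with the block. Pmaip1 and Bbc3 encode the apoptosis inducers Noxa and Puma, Cdkn1a encodes the cell cycle inhibitor p21, and Mdm2 encodes the ligase that degrades p53. The median log2 ratio of the list was 0.62, 0.86 and 1.25 in tumors 1, 2 and 3. Eda2r and Tnfrsf21 had the same order of tumors, and Fas and Tnfrsf10b did not. The log2 ratios of all genes were also widest in tumor 3, and a relation of these genes to the list was not tested. With the block and without tumor 1, 2 or 3, the list had 11, 10 and 12 genes past the threshold. Of all genes tested, 1134 of 14893, 851 of 14634 and 2019 of 15514 passed in those fits. Bbc3 did not pass without tumor 1 (1.45, adjusted p 0.185 in limma-voom) or tumor 2 (1.33, adjusted p 0.361). Earlier results of these data were known when the list was chosen, so its direction is not independent evidence.

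**Figure D4:**
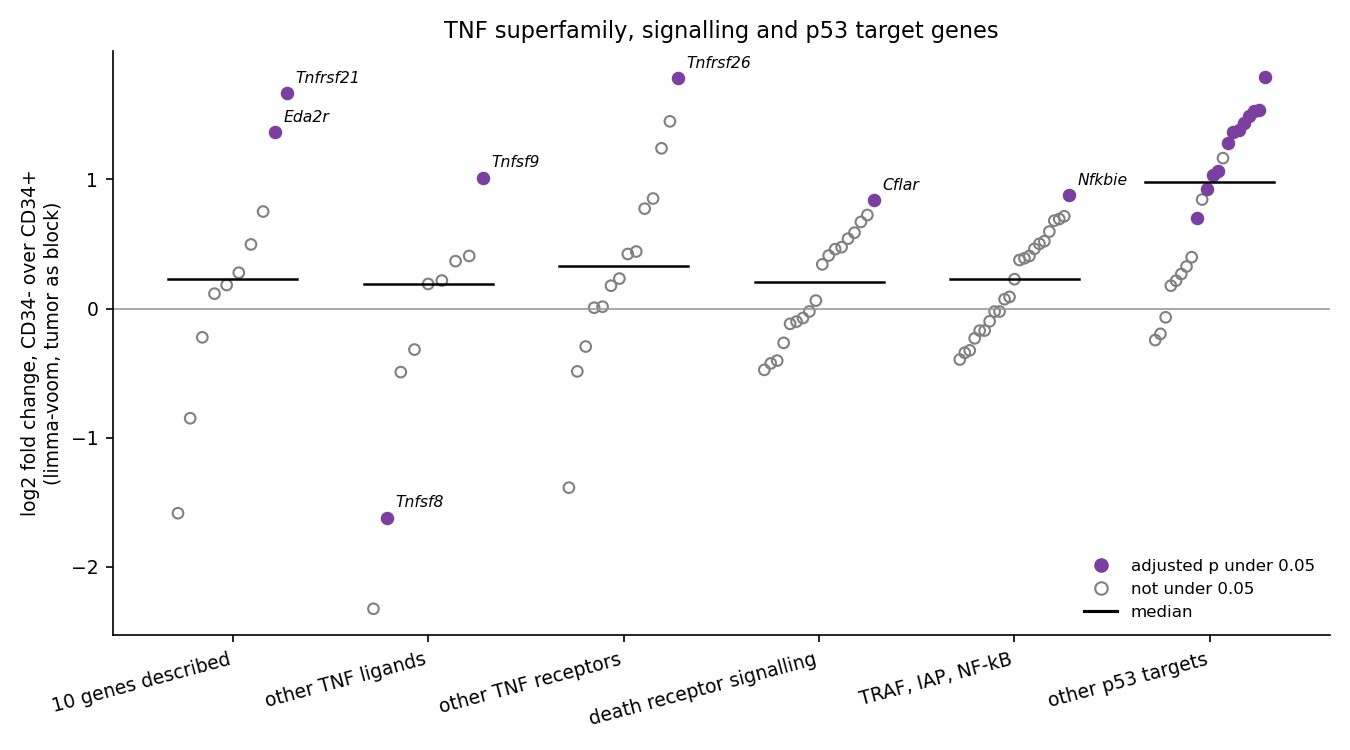
Log2 fold change with the tumor as a block, CD34 negative over CD34 positive, for the tested genes of 6 lists; each symbol is a gene, filled where the adjusted p was under 0.05 in limma-voom, and the bar is the median. The p53 target list had 12 filled symbols and a median of 0.98, and the other lists had 1 or 2.

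Markers of fibroblasts and of other cell types were summed in each library. The 5 fibroblast markers summed to 23900 to 39300 CPM in CD34 negative and 25500 to 33600 CPM in CD34 positive CAFs, a sum carried mostly by Col1a2. Of the 5, 4 were lower in the CD34 negative library of all 3 tumors, with a list median of -0.73 with the block, and Dcn (-1.12, adjusted p 0.00154 in limma-voom) and Lum (-0.73, adjusted p 0.014) fell with the block. The 6 epithelial markers summed to 144, 121 and 50.2 CPM in negative libraries 1, 2 and 3 and to 131, 78.0 and 17.1 CPM in positive libraries 1, 2 and 3. This is the order of libraries within each fraction that Tnfrsf21 had, and the sums of the endothelial markers had it too. None of the 6 epithelial markers was at 0 in any library. The 2 pericyte markers summed to 41.4 to 49.6 CPM in CD34 negative and 4.23 to 17.6 CPM in CD34 positive CAFs, and Mcam rose by 2.15 with the block (adjusted p 0.00251). The 4 Schwann cell markers, at 14.8 to 22 against 7.19 to 12.1 CPM, and the 4 muscle markers, at 2.97 to 13.3 against 1.52 to 1.86 CPM, also did not overlap between the fractions, and the muscle marker Myf5 was at 0 in all 6 libraries. Keratinocyte markers were lower in CD34 negative CAFs, at 1.04 to 3.84 against 7.1 to 10.8 CPM. Endothelial (5.91 to 27.3 CPM), macrophage (9.03 to 16.5 CPM) and lymphocyte markers (1.71 to 6.38 CPM) overlapped. The part of these cells in the values of the 10 genes was not tested.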

How the data were processed

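RNA of sorted CAFs from 3 tumors was sequenced as 6 TruSeq RNA v2 libraries on a NextSeq 500. The authors aligned reads to GRCm38/mm10 and obtained gene-wise counts by NCBI identifier with Rsubread (featureCounts in the submitters' processing notes); the deposited values are raw counts per gene and library, with no normalization and the gene length beside them. Strand use and the handling of reads with several matches were not stated. Columns of samples from other series numbered 0.

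Genes were kept with filterByExpr (minimum count 10), scaled by TMM and compared with limma-voom, two-sided, with Benjamini-Hochberg adjustment over all 14855 genes tested (threshold 0.05). These steps follow the study's methods, which state no tumor term. Without that term 3 genes were called higher in CD34 negative CAFs, and with the block 642 were. The paper reports far more than 3 upregulated genes for this comparison, so the fit without the term did not reproduce its calls. Intervals are at 95%. A positive log2 fold change means higher in CD34 negative CAFs. The tumor number pairs the libraries, as both fractions came from 1 tumor. Deviations from the group means of the libraries of 1 tumor correlated at 0.373, 0.350 and 0.219, so blocked values stand beside a result whose call they alter. Fits were run in R 4.3.3 with limma 3.58.1, edgeR 4.0.16 and, as an alternative, DESeq2 1.42.0, and the fits were tested on simulated data.

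The alternatives covered the block, the test, normalization, the filter, thinning to the smallest library and each library and tumor. Fits of the 5 other lists without each tumor were added after seeing the data. The genes, lists and tests were chosen with earlier results of these data known. Named genes are the 10 genes, Cd34, 9 partner genes and, of each other list, at most 8 genes past the threshold with the block. The value of 1 marker gene is not reported here singly. Gene positions and promoters are from RefSeq (GRCm38.p6), matched by gene identifier and symbol. No replicate was a resampling of another: between libraries of 1 group the chi-square statistic per gene was at least 111.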

Additional observations from a re-analysis of the deposited data

How the results depend on the processing

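Of the 27 fits, all kept the sign of Fas, Tnfrsf10b, Tnfrsf21, Eda2r, Tnfrsf19, Tnfrsf11b and Tnfsf10, with log2 fold changes of 0.31 to 0.66, 0.46 to 1.18, 1.12 to 2.27, 0.98 to 1.82, 0.14 to 0.56, -1.25 to -0.30 and -2.84 to -0.26. The number of genes past the threshold, 18 in limma-voom without a tumor term, was 1273 with the replicate block, 703 with the tumor as a random effect, 9 in edgeR (575 with the block), 698 in DESeq2 (1733 with the block), 161 with sample quality weights, 32 with library totals alone and 1028 with thinned counts and the block; leaving out a library or tumor gave 0 to 2019. Of the 10 genes, 0 passed without the block; 2 did with the block, 2 with the random effect, 1 in edgeR and 3 in DESeq2 with the block, and 2 with thinned counts and the block, and leaving out a library or tumor gave 0 to 3. With the block, 2 other ligand genes, 1 other receptor gene, 1 death receptor signalling gene, 1 TRAF and NF-kB gene and 12 p53 target genes passed, against 0, 0, 0, 0 and 1 without it. With the block and without each tumor in turn, these lists had 2 to 2, 1 to 2, 1 to 2, 0 to 5 and 10 to 12.

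Signs turned for 3 genes and 2 ratios. Tnfsf11 was at 0.25 with thinned counts, with and without the block, and at 0.14 without positive library 2. Where 1 library or tumor was left out, Tnfrsf12a ran from -0.039 to 0.34, Tnfsf11 from -0.97 to 0.14 and Tnfsf12 from -0.15 to 0.54. Tnfrsf12a was at -0.039 without negative library 1, -0.02 without tumor 1, and -0.01 and -0.0097 without tumor 2, without and with the block. Tnfsf12 was at -0.06 without negative library 1, -0.01 without positive library 2, -0.03 without tumor 1, and -0.12 and -0.15 without tumor 2, without and with the block. Without tumor 3, the difference between fractions in the log2 ratio of Tnfsf11 to Tnfrsf11b went from 0.75 to -0.077, and that of Tnfsf12 to Tnfrsf12a from -0.041 to 0.17; without other tumors they reached 1.24 and -0.17. The cause was not tested.

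Tnfsf10, with 2 to 57 counts per library, is limited by depth, and Tnfrsf11b by negative library 3. Where a tumor is left out with the block, 4 libraries carry the fit.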
